A study of Mus musculus with 6 samples.

Results

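The chromosome 13 zinc finger gene cluster is described here as a contact region of the genome. It was represented by 10 genes, *Zfp85*, *Zfp429*, *Zfp493*, *Zfp712*, *Zfp87*, *Zfp748*, *Zfp729a*, *Zfp273*, *Zfp455* and *Zfp595*, and its contacts are the bin pairs whose gene lists name any of them. All 10 genes were listed for 1 bin, chr13:67000175-67999933 in the mm10 (GRCm38) build, whose list holds 31 genes. That bin took part in 3 of the 15 chromosome 13 bin pairs and in 3 of the 61 bin pairs of the whole table, of which 30 were autosomal and 31 were on the X chromosome. The rows were chosen by the false discovery rate (FDR) of the same comparison that gives their fold changes, because the table holds only bin pairs with an FDR below 0.1, so their fold changes, F statistics and p-values are a description and are not tested again here.

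The interactions were measured by in situ Hi-C, a method that joins the cut ends of DNA held together by crosslinks, so that each sequenced read pair reports 2 pieces of DNA that lay close in the nucleus. The cells were female neural stem cells (NSCs) on the C57BL/6J strain, derived from the cortex of E14.5 embryos, kept below 10 passages and fixed in 1% formaldehyde before cutting with MboI. The WT group, genotype Smchd1GFP+/+, had 3 libraries from 3 separately named lines with GFP fused to the endogenous SMCHD1 protein and no other change to the gene. The MommeD43 group had 3 libraries from 3 separately named lines that carried the same GFP fusion and were homozygous for the *MommeD43* missense change, which was introduced by genome editing, so that both groups share the tag. The design text calls the lines of each genotype independent, without saying that each came from its own embryo, and Hi-C gives no expression by which the cell type could be checked. No value per library was used here, because the table gives 1 set of statistics per bin pair, and the depth behind a bin pair is known only as its average abundance.

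C2H2 zinc finger proteins bind DNA through repeated fingers, in each of which a pair of cysteines and a pair of histidines hold a zinc ion, and neighbouring fingers are joined by a short conserved linker. In mammals many of these proteins also carry a KRAB box, which recruits the corepressor TRIM28 (KAP1), and their genes often lie in tandem clusters that grew by duplication and are covered by repressive chromatin. Genes of this cluster include *Rsl1*, the regulator of sex-limitation gene, which represses male-biased liver genes, and relatives that were named as its candidates. SMCHD1 is a noncanonical SMC protein that associates with chromatin and is known for its part in silencing the inactive X chromosome, imprinted genes and some gene clusters.

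The bin is bounded by MboI sites, the cut positions from which contacts are counted, and its partner bins are bounded in the same way. The sequences below show the start of the zinc finger bin and of each partner bin, read on the plus strand of GRCm38 with the MboI site in capitals, because these sites set which genes share a value.
Zinc finger bin start, chr13:67000165-67000188: ggactcctggGATCaccatatgtt
*Ctla2a* bin start, chr13:60000745-60000768: atttgcccaaGATCccatcctgcc
*Naip* bin start, chr13:100000145-100000168: aggcaaagagGATCatgggttcaa
*Ryr2* bin start, chr13:10999485-10999508: attggcctctGATCtctacacatg

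The coding sequence of the members is itself repetitive in a characteristic way, which 84-base units of finger and linker show. The units below are the first finger of each gene that is followed at once by a conserved linker, for the 3 pairs of members whose units were most alike. They are written 5′ to 3′ along the coding strand, with the codons of the zinc-binding cysteines and histidines in capitals.
*Zfp429*, chr13:67390292-67390375, minus strand: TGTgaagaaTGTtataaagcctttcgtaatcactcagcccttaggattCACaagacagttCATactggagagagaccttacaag
*Zfp455*, chr13:67207420-67207503, plus strand: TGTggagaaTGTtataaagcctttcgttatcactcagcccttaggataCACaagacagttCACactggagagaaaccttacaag
*Zfp595*, chr13:67317793-67317876, minus strand: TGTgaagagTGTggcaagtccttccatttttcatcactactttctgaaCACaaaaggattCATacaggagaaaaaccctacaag
*Zfp729a*, chr13:67621413-67621496, minus strand: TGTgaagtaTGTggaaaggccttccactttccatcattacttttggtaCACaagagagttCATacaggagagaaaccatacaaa
*Zfp273*, chr13:67825001-67825084, plus strand: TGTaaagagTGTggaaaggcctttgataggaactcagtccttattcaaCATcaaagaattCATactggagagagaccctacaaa
*Zfp493*, chr13:67786176-67786259, plus strand: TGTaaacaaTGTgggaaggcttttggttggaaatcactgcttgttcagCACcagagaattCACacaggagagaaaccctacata
The units of *Zfp429* and *Zfp455* shared 79 of 84 bases, those of *Zfp595* and *Zfp729a* 68, and those of *Zfp273* and *Zfp493* 67. Over all 45 pairs of the 10 members the median was 59 identical bases and the lowest value 53.

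All 3 contacts of the zinc finger bin were stronger in MommeD43 than in WT NSCs. As background, 61 of 138553 bin pairs tested passed the same FDR in either direction, 0.044%, and 47 of them, 0.0339%, were strengthened. These shares describe how rare any listed bin pair was, and since the rows were selected on that comparison nothing further is read from the 3 of 3. All 3 contacts were long-range, and the bin's own diagonal pair, which counts contacts within the bin, had no row in the table. A bin holds many genes and a contact has a single value, so none of the values can be assigned to 1 member: each of the 10 genes has the same 3 contacts.

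The nearest partner was the bin at chr13:60000755-61000123, 7 bins (7 Mb) from the zinc finger bin. Its 11 listed genes include *Ctla2a* and *Ctla2b*, which encode small proteins resembling the propeptide of cathepsins, *Ctsll3*, a cathepsin L-like gene, *Tpbpa*, a trophoblast-specific protein gene, *Gas1*, which encodes a cell-surface receptor for hedgehog ligands, and *Dapk1*, a death-associated protein kinase. The log2 fold change of this contact was 0.40 with an approximate standard error (SE) of 0.083 and a 95% interval of 0.23 to 0.57, a fold change of 1.32 (1.17 to 1.48). Its average abundance was 2.21 on the log2 scale of CPM, read pairs of the bin pair scaled to the library total, or 4.62 CPM. The deposited edgeR quasi-likelihood statistics were F = 22.7 and FDR = 0.0715. It was the most abundant and the smallest in fold change of the 3 contacts. Every listed row had passed the FDR limit, so an interval built from its fold change and F excludes no change by construction. The 95% intervals of all 3 contacts are therefore descriptive and add no support.

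The second partner was the bin at chr13:100000155-100999677, 33 bins (33 Mb) away, which is called the *Naip* bin here. It lists 20 genes, among them *Naip1*, *Naip2*, *Naip5* and *Naip6*, a tandem family of inflammasome sensors of bacterial proteins, *Cdk7*, a kinase of the general transcription factor TFIIH, and *Ocln*, a tight junction protein gene. The log2 fold change was 0.54 with an approximate SE of 0.11 and a 95% interval of 0.31 to 0.77, a fold change of 1.45 (1.24 to 1.70). The average abundance was 0.82 log2 CPM, or 1.77 CPM. With F = 22.2 and FDR = 0.0771 by edgeR, it had the lowest F statistic of the 3. This partner was not particular to the zinc finger bin, because the *Naip* bin took part in 8 chromosome 13 rows, more than any other bin.

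The farthest partner was the bin at chr13:10999495-12000063, 56 bins (56 Mb) away on the centromere-proximal side of the chromosome. Only 2 genes are listed for it, *Ryr2*, the cardiac ryanodine receptor gene, whose product releases calcium from intracellular stores, and the pseudogene *Zp4-ps*. The log2 fold change was 0.66 with an approximate SE of 0.14 and a 95% interval of 0.38 to 0.94, a fold change of 1.58 (1.30 to 1.92). The average abundance was 0.02 log2 CPM, or 1.02 CPM, with F = 22.4 and FDR = 0.0734 by edgeR. It spanned the largest distance of the 15 chromosome 13 rows.

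Across the 3 contacts the average abundance fell with distance and the fold change rose, and the least abundant contact had the largest fold change. A less abundant bin pair generally needs a larger fold change to pass the FDR limit. No trend with distance or abundance is therefore read from these selected rows. The approximate SE is computed from the fold change and F, so at nearly equal F it grows with the fold change by construction, and the differences among the 3 contacts were not tested. The F statistics lay within 22.2 to 22.7, and ranked from 10 to 12 of 15 on chromosome 13. Over the whole table the 3 p-values ranked 36, 37 and 39 of 61, and the last row inside the threshold had an FDR of 0.0995 with a log2 fold change of 0.37. At an FDR below 0.05, 0 of the 3 contacts would be listed. Bin pairs outside the threshold were not analysed here.

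**Figure D1:**
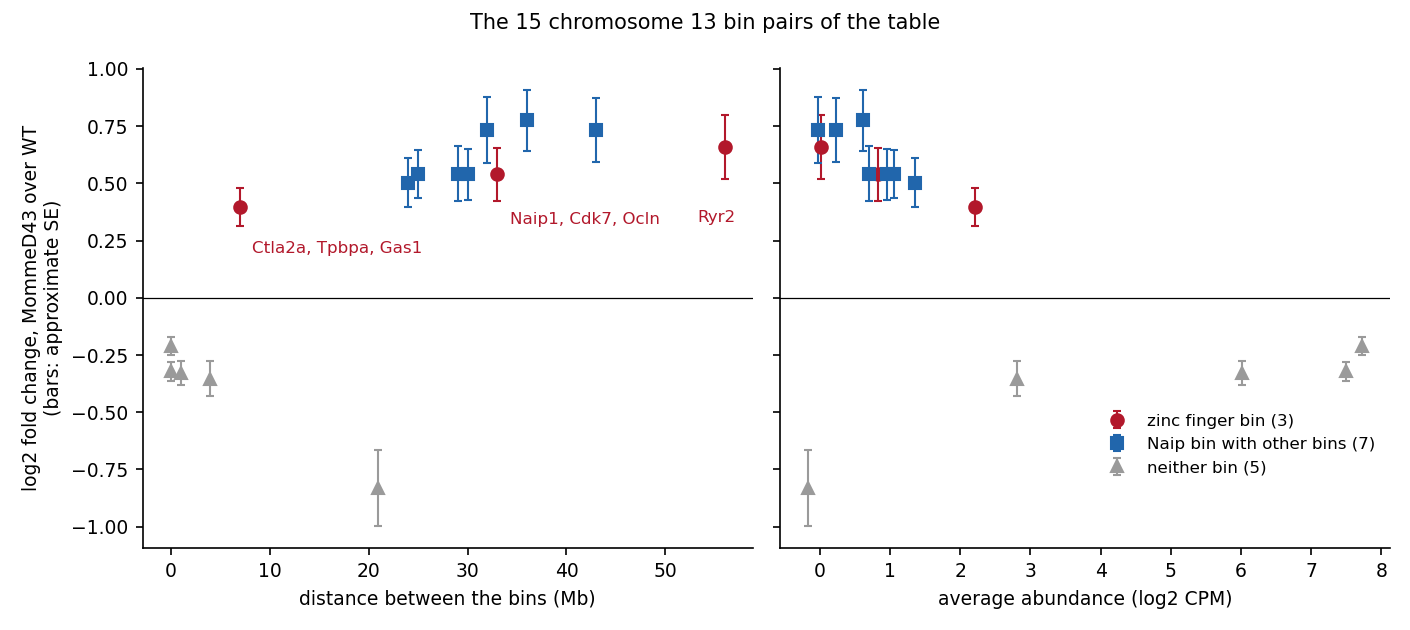
Log2 fold change (MommeD43 over WT, log2 scale) of the 15 chromosome 13 bin pairs against the distance between bins in Mb (left) and the average abundance in log2 CPM (right). Circles are the 3 zinc finger contacts, squares the 7 other contacts of the *Naip* bin, triangles the 5 remaining pairs, and bars the approximate SE. The circles lie at 0.40, 0.54 and 0.66 within the range of the squares or just below it, and all triangles lie below 0.

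The other 12 chromosome 13 rows comprised 7 strengthened and 5 weakened interactions. Every one of the 7 strengthened rows paired the *Naip* bin with another bin, at distances of 24.0 to 43.0 Mb, with log2 fold changes of 0.50 to 0.78 and a median of 0.54, the same to 2 decimals as the median of the 3 zinc finger contacts. None of the 10 strengthened rows of the chromosome lacked both the zinc finger bin and the *Naip* bin. The 5 weakened rows had neither bin, log2 fold changes of -0.83 to -0.21 and a median of -0.33, and included 2 same-bin pairs on the diagonal. The zinc finger contacts at 7 and 56 Mb were thus the strengthened rows of the chromosome that did not involve the *Naip* bin.

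The bin next to the zinc finger bin on its distal side, chr13:67999930-68999867, which lists *Mtrr*, a methionine synthase reductase gene, and *Adcy2*, an adenylate cyclase gene, also had a strengthened contact with the *Naip* bin. Its log2 fold change was 0.73 with an approximate SE of 0.15, at an average abundance of -0.02 log2 CPM. The zinc finger bin's value for the same partner, 0.54, was lower, and the difference was not tested because both rows were selected on this comparison. Around each zinc finger contact lie 8 surrounding bin pairs made of the same or adjoining bins. The contact with the *Naip* bin had 1 of these 8 in the table, that of the neighbour just described, and the contacts with the *Ctla2a* bin and the *Ryr2* bin had 0 of 8.

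The 31 genes listed for the zinc finger bin were all found in the RefSeq annotation of GRCm38.p6 within or across the edge of the bin. RefSeq placed 42 genes there, of which 27 were protein-coding, 8 were long noncoding RNA genes and 7 were pseudogenes. Of the coding genes, 25 encoded at least 1 C2H2 finger by the strict pattern, a pair of cysteines 2 residues apart and a pair of histidines 3 residues apart with 12 residues between the pairs. These comprised 23 genes with Zfp symbols, *Rsl1* and *Rslcan18*. The coding genes without a finger were *BC048507* and *Gm10037*. In 19 of the 25 the gene symbol or a RefSeq synonym begins with Rsl. All 25 also held the pattern searched for the KRAB box, as did *Gm10037*. The finger genes stretched from the start of *Zfp712* at 67038594 to the end of *Zfp273* at 67827000, over 788 kb of the bin. On the minus strand lay 20 of them and on the plus strand 5.

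Each of the 10 members had 4 coding exons in its longest coding model, as did 10 of the other 15 finger genes. The members encoded 164 fingers in total, and the conserved linker occurred a median of 8 times in a member protein against 3 times in the other finger proteins. *Zfp729a* had the most, 27 fingers in 973 residues, followed by *Zfp748* with 23 in 888 residues and *Zfp712* with 20 in 705 residues. *Zfp595* had 18, *Zfp87* and *Zfp273* 15 each, and *Zfp85* 14. *Zfp493* and *Zfp455* had 11 each and *Zfp429* had 10, the fewest, with *Zfp493* the shortest protein at 384 residues. The other 15 finger genes ranged from 3 fingers in *Zfp459* to 30 in *Zfp729b*, with a median of 12 against 15 for the members. *Zfp455*, *Zfp493* and *Zfp273* lay on the plus strand and the other 7 members on the minus strand. The members were spread across the cluster rather than forming a block, with *Zfp712* 38.4 kb, *Zfp455* 194 kb, *Zfp595* 313 kb, *Zfp429* 389 kb, *Zfp87* 516 kb, *Zfp748* 538 kb, *Zfp729a* 613 kb, *Zfp85* 744 kb, *Zfp493* 780 kb and *Zfp273* 814 kb from the bin start.

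**Figure D2:**
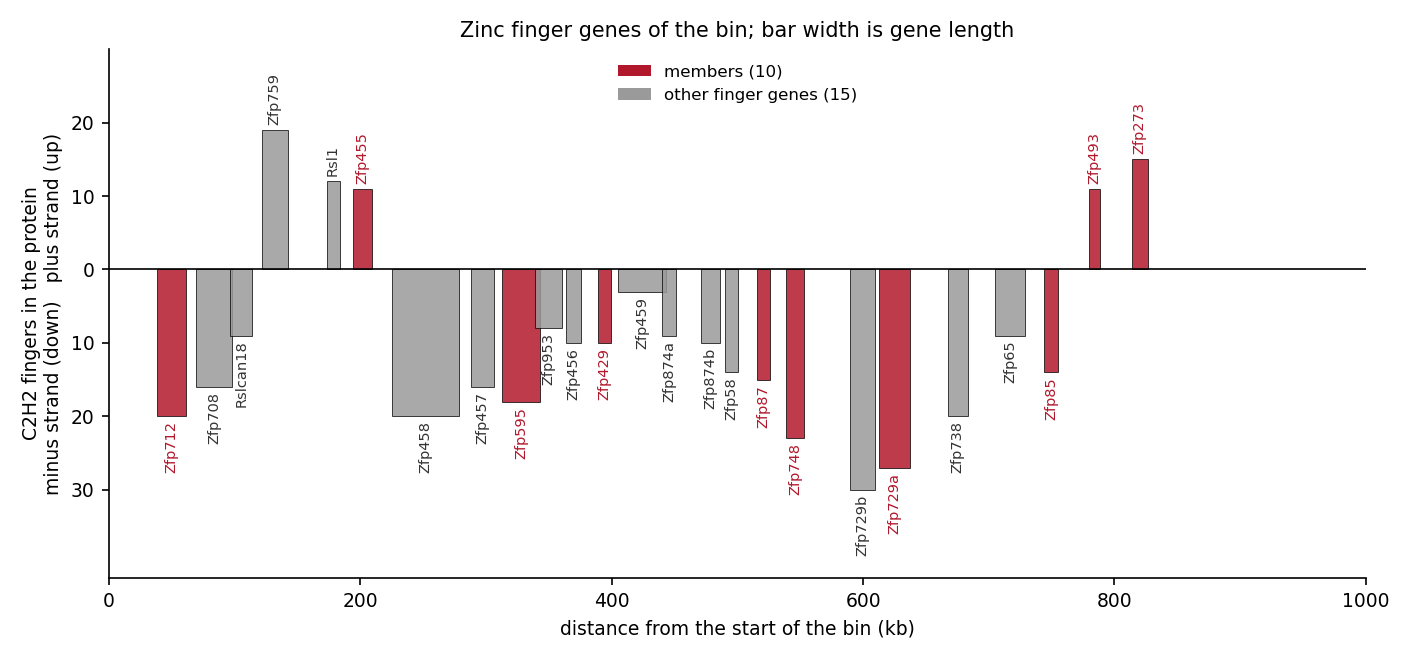
The 25 finger genes of the bin by distance from its start (kb) and number of C2H2 fingers, upward for genes on the plus strand and downward for the minus strand, with bar width equal to gene length. Members are red and the other 15 genes grey. *Zfp729b* and *Zfp729a*, side by side, reach the most fingers, 30 and 27, and the stretch after *Zfp273* holds no finger gene.

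The member proteins differed in how alike they were. Identity over aligned residues, with gaps left out, ranged from 50.1% to 95.6% over the 45 pairs, with a median of 60.0%. The highest value was for *Zfp273* and *Zfp85*, which lie on opposite strands near the distal end of the cluster and matched at 452 of 473 aligned residues. *Zfp273* and *Zfp493* matched at 83.1%, *Zfp429* and *Zfp455* at 75.1%, *Zfp595* and *Zfp729a* at 74.4%, and *Zfp748* and *Zfp87* at 70.6%. Of these pairs, *Zfp273* and *Zfp493* as well as *Zfp748* and *Zfp87* were adjacent finger genes, *Zfp273* and *Zfp85* had *Zfp493* between them, and several finger genes separated *Zfp429* from *Zfp455* and *Zfp595* from *Zfp729a*.

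**Figure D3:**
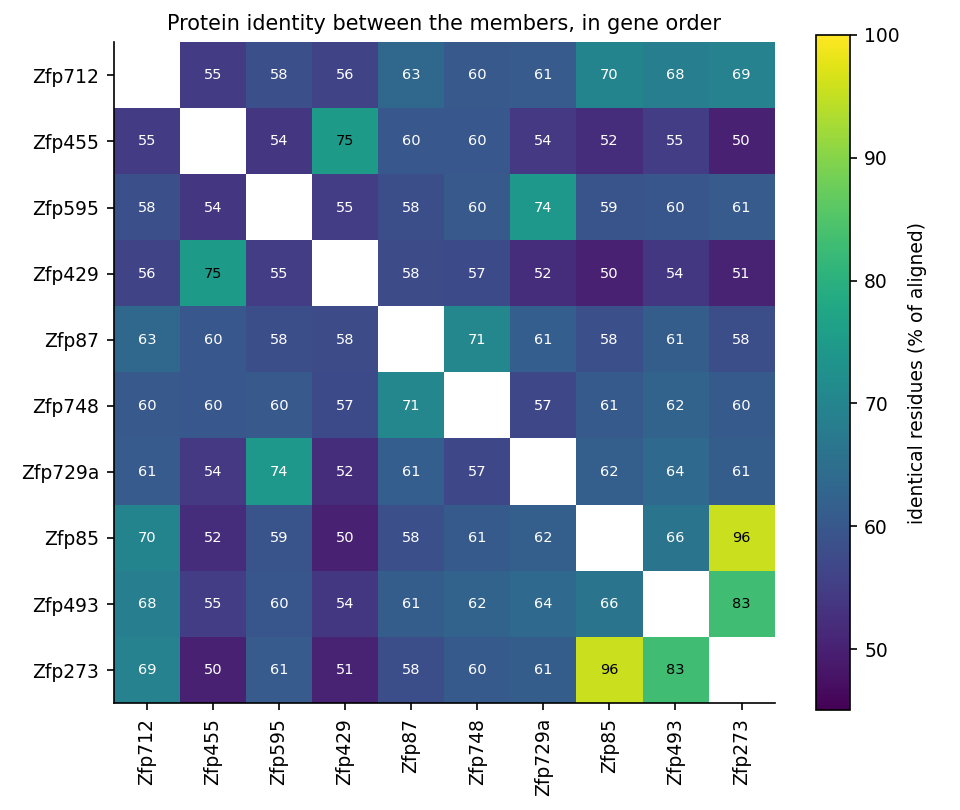
Identical residues as a percentage of aligned residues for each of the 45 pairs of member proteins, with members in gene order on both axes. The brightest cells are *Zfp85* with *Zfp273* at 95.6% and *Zfp493* with *Zfp273* at 83.1%, and the lowest value is 50.1%.

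No other bin of the genome held as many zinc finger genes. With 23 coding genes of Zfp symbol, or 24 coding genes with 5 or more fingers, the bin ranked 1 of 2668 bins by either measure. The next by Zfp symbols were a chromosome 17 bin starting at 21000530 with 14, a chromosome 7 bin starting at 24000752 with 12 and another on chromosome 7 starting at 127000004 with 10, and none of these was in the table. Of the 20 bins with 5 or more Zfp genes, 1 was in the table, the zinc finger bin itself, which was chosen from that table, so no share is read from this count. In all, 72 of the 2668 bins were in the table. On chromosome 13, 23 of 37 coding Zfp genes lay in the zinc finger bin, 12 lay in bins absent from the table, and 2 lay in other listed bins. One of the 2 was *Zfp367*, in the bin whose contact with the *Naip* bin had the highest log2 fold change among the listed chromosome 13 rows, 0.78. The other was *Zfp366*, in a bin that had only weakened rows. None of the 3 partner bins held a Zfp gene or a coding gene with 5 or more fingers. Zfp symbols do not cover every finger gene of the chromosome. On chromosome 13, 5 bins held at least 5 genes with 5 or more fingers, and only the zinc finger bin among them was listed. The adjoining proximal bin, chr13:65999821-67000178, held 8 such genes but 1 Zfp gene.

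A read whose sequence occurs more than once in the genome cannot be placed at 1 position, so repeated sequence was counted as words of 75 bases, the length of the reads. In the zinc finger bin 12.9% of words occurred more than once on chromosome 13, against a median of 4.31% over the 118 bins of known sequence, which placed it at rank 12. Words repeated within the bin itself made up 9.20%, rank 10, against a median of 1.70%. For words occurring more than once on chromosome 13, the *Naip* bin had 9.06%, rank 17. By the same measure the *Ctla2a* bin had 6.75%, rank 25, and the *Ryr2* bin 4.31%, rank 61. The members' own genes were repeated to different degrees. *Zfp273* had 19.95% repeated words over its whole length and *Zfp429* 17.8%, while *Zfp87* had 0.337% and *Zfp493* 0.419%.

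Within coding exons, 24.3% of the words of *Zfp729a* were repeated on the chromosome, 19.9% of those of *Zfp273* and 19.4% of those of *Zfp85*, against 0 of 1890 words of *Zfp712* and 0 of 1650 words of *Zfp595*. Of 34823 distinct coding words of the 25 finger genes, 1773 were present in more than 1 gene and none in more than 3. A word present in 3 genes, and nowhere else on the chromosome, came from *Rsl1* (chr13:67182004-67182078), *Zfp456* (chr13:67367036-67367110) and the member *Zfp429* (chr13:67390735-67390809), and covers most of a finger, ending within the codon of its second histidine, with the codons of both cysteines and the first histidine in capitals.
Shared word of *Rsl1*, *Zfp456* and *Zfp429*: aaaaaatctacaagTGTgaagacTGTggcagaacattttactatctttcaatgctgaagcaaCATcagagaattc
Among the places on chromosome 13, a read made of this word alone could come from any of the 3 genes, all of them in the same bin.

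Sequence shared between the zinc finger bin and its partners was within the range of the chromosome. The *Ctla2a*, *Naip* and *Ryr2* bins shared 8141, 8069 and 7783 words with the zinc finger bin, ranks 18, 20 and 26 of 117 other bins, where the median was 6336 and the range 441 to 22664. The highest value was that of the adjoining distal bin, which holds no Zfp gene, and the partners lay above the median. The zinc finger bin had a GC content of 41.2% (rank 67) and 2586 MboI sites (rank 30), near the chromosome medians of 41.6% and 2462.5 sites, and 36.4% of its bases were masked as repeats (median 32.5%). The part of repeated sequence in the fold changes was not tested.

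**Figure D4:**
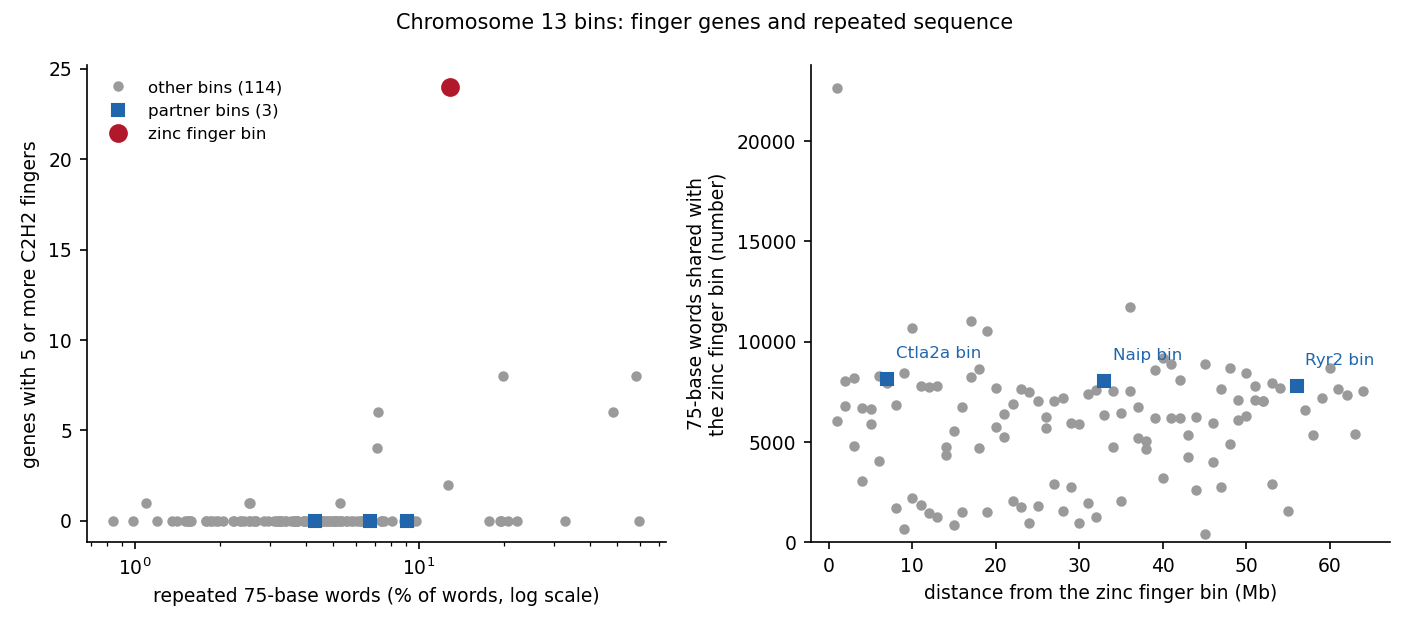
Chromosome 13 bins by coding genes with 5 or more C2H2 fingers against the percentage of repeated 75-base words on a log scale (left), and by 75-base words shared with the zinc finger bin against distance in Mb (right). The zinc finger bin stands alone at 24 genes and 12.9% repeated words, and the 3 partner bins hold 0 such genes and share 7783 to 8141 words with it.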

How the data were processed

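The authors mapped read pairs from 6 libraries to mm10 with HiCUP, counted them into 1 Mb bin pairs with diffHic, normalized by LOESS (the diagonal apart), and compared the groups with edgeR's quasi-likelihood F test. The submitters' processing notes also name bcl2fastq and Trim Galore 0.4.4. The deposited table holds the authors' own comparison: log2 fold changes, average log2 CPM, F (read as a score), p-values and the FDR, a Benjamini-Hochberg adjusted p-value. It is used here because the contacts are defined in it. It has 0 columns of values per library, so no depth, replicate spread or refit is given. The members and gene lists were chosen with earlier results of these data known. The genes named are the 10 members, up to 6 listed genes of each partner bin, genes of adjoining bins, and Zfp and Rsl genes of chromosome 13, with *BC048507* and *Gm10037* added to account for a count.

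The approximate SE is the size of the log2 fold change divided by the square root of F. Degrees of freedom (47.2 for the 3 contacts) and the number of tests, 138553, were recovered from F, p-value and FDR, as tested on simulated data. Bins were rebuilt on GRCm38.p6 by assigning MboI fragments to 1 Mb windows by their midpoints, which gave all 72 bins of the table. Finger counts came from the longest RefSeq coding model of each gene, translated, because no protein table was used. Words were counted on both strands as 1. Identity used global BLOSUM62 alignments. Python 3.11.15, numpy 2.4.6, scipy 1.17.1, pandas 2.3.3, Biopython 1.88 and matplotlib 3.10.9 were used. Alternatives covered the FDR, the rows compared, the word length and the finger pattern.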

Additional observations from a re-analysis of the deposited data

How the results depend on the processing

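Of the 21 alternative values computed, 7 moved and 14 did not, where a count had to change by over 1.5 times, or a median or its difference by over the approximate SE of 0.11, or a share to leave its Wilson interval, to be taken as moved. The count of 3 zinc finger contacts fell to 0 at an FDR below 0.05, to 0 at an FDR below 0.01 and to 0 at the Bonferroni limit of 0.05, so the contacts rest on the FDR of 0.1 of the table, and it rose to 6 when rows with any listed Zfp symbol on chromosome 13 were counted. It was 2 when a minimum size of 0.5 in log2 fold change was set and 4 with rows of an adjoining bin included. The median of the 3 contacts minus that of the other chromosome 13 rows, 0.02 in log2 fold change, became 0.87 against the rows without the *Naip* bin and 0.75 against all other autosomal rows, the first of which holds only weakened rows, and changed sign, to -0.00374 against strengthened rows alone and -0.000248 against rows at least 2 Mb apart, so it has no settled direction. Leaving out each zinc finger contact in turn gave medians of 0.47 to 0.60. Of bins with at least 3, 5 and 10 Zfp genes, 2 of 38, 1 of 20 and 1 of 4 were in the table, each count including the zinc finger bin that was chosen from it, so no share is read from them. No paired analysis was possible because the table holds no values per library, and for the same reason leaving out libraries and DESeq2 size factors were not run. The average abundance of the contacts was 1.02 to 4.62 CPM, and its part in their precision was not tested.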
